A study of Mus musculus with 8 samples.

Results

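The 55 genes described here code for matrix proteins other than the collagens and for the proteins that fold and crosslink matrix fibres. They were chosen by gene symbol from the 38338 genes of the deposited table, and all 55 were found. ING WAT, the subcutaneous fat depot of the groin, was taken from C57BL/6j mice at postnatal day 21 (PN21, the age of weaning) and at postnatal day 98 (PN98, young adulthood), with 4 mice per age. The 8 mice carried no transgene and received no treatment that the labels name, and whole depots were homogenised, so that adipocytes, vessels, nerves and connective tissue all contributed RNA. The study bred its mice on AIN93G diet and fed its PN98 groups either AIN93M or a western style diet from PN42, and the mice were fasted before dissection, but which of these diets the PN98 mice used for sequencing had eaten, and whether the PN21 mice were male or female, is not given in the sources used here. The Y-linked genes *Ddx3y* and *Eif2s3y* were expressed in all 8 mice (18.1 to 25.9 and 38.9 to 84.5 FPKM), and *Xist* stayed at or below 0.832 FPKM in every mouse, so that a split of the 2 ages by sex was not seen.

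As background, the interstitial matrix of fat is laid down mainly by fibroblasts and adipose progenitors. Fibrillin microfibrils form the scaffold on which elastin is deposited, lysyl oxidases crosslink elastin and collagen, and prolyl and lysyl hydroxylases modify collagen chains while these fold in the endoplasmic reticulum. Small leucine-rich proteoglycans bind collagen fibrils and set their spacing, versican and hyaluronan give a loose, hydrated matrix, and laminins, nidogens and perlecan form the basement membrane that wraps each adipocyte and each vessel.

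Values are FPKM (fragments per kilobase of transcript, scaled to the mapped fragments of the library) summed over the transcripts of a gene. Mice are named as in the labels: m1, m49, m138 and m145 at PN21, and m35, m106, m114 and m125 at PN98, and values are given in this order. Sequencing depth is unknown, since FPKM values came without counts. Genes encoded in mitochondrial DNA took 50.9% to 59.9% of all FPKM in the PN21 mice and 42.4% to 51.7% in the PN98 mice. Among the PN98 mice, m35 resembled the other PN98 mice (Pearson r 0.820 to 0.872 across genes, which are not independent replicates) no more than the PN21 mice (0.868 to 0.887). Mouse m125 had the lowest PN98 value in 49 of the 49 matrix genes tested, and m49 had the lowest PN21 value in 37 of 49.

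Markers of several cell types moved with age. Of 10 adipocyte markers, 5 were higher at PN98, and their summed level was 14399 to 25615 FPKM at PN21 and 38054 to 48456 at PN98. Of 10 fibroblast and adipose progenitor markers, 1 (*Dlk1*) was lower, with a sum of 341 to 583 FPKM at PN21 and 194 to 442 at PN98, where m125 was lowest. Of 5 Schwann cell markers tested, 3 were lower (243 to 475 FPKM at PN21 and 77.8 to 131 at PN98), and of 6 epithelial markers, 1 was lower (3.83 to 77.7 FPKM at PN21 and 1.70 to 2.84 at PN98), with *Krt14* at 0 in all 4 PN98 mice. Of 8 skeletal muscle markers tested, 2 were higher (30.8 to 557 FPKM at PN21 and 418 to 2798 at PN98). None of the endothelial, macrophage, lymphocyte, or mural and smooth muscle markers passed limma's test at an adjusted p under 0.05, and with an unadjusted p under 0.05 their counts were 1 of 8, 0 of 8, 3 of 8 and 0 of 7, all lower. Of all genes tested, 2.96% were lower and 2.38% higher at that adjusted p, and 19.1% and 8.23% at that unadjusted p. The summed lymphocyte markers stood at 225 to 560.4 FPKM at PN21 and, at PN98, at 484 FPKM in m35 and 12.3 to 88.6 FPKM in the other 3 mice. The part of these markers in the results on matrix genes was not tested. In bulk tissue, fewer cells of a type and less RNA per cell cannot be told apart.

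The matrix genes did not move as a block. Of the 49 with a mean of at least 1 FPKM, 11 were lower and 1 was higher at PN98 than at PN21, and 37 did not pass the test (limma on log2(FPKM + 1), Benjamini-Hochberg adjusted p under 0.05 over 16062 genes). Over all genes tested, 2.96% were lower and 2.38% higher (5.34% in either direction). The other 6 (*Loxl4*, *P4ha3*, *Tnc*, *Comp*, *Has1* and *Has2*) had a lower mean and were not tested. Of the genes tested, *Fbn2*, *Mfap4* and *Thbs4* reached that mean through the PN21 mice alone and *Spp1* through the PN98 mice alone, and without these 4 genes 9 of 45 were lower and 1 higher. The genes that fell were *Postn*, *Mfap2*, *Mfap4*, *Eln*, *Vcan*, *Fbn2*, *Fbn1*, *Loxl2*, *Loxl1*, *P4ha2* and *Plod2*, and the gene that rose was *Prelp*. Log2 fold changes had a median of −0.48 over the 49 matrix genes, compared with −0.21 over all genes tested. Without *Fbn2*, *Mfap4*, *Thbs4* and *Spp1* the median was −0.34 over 45 genes. The counts over the 49 genes that follow keep these 4. The 2 ages did not overlap for 19 of the 49 matrix genes, against 16.1% of all genes tested. PN98 was the higher age for 2 of them (*Prelp* and *Lox*), against 6.07% of all genes tested. The elastic fibre genes and the crosslinking or folding genes held 9 of the 11 genes that fell, and none of the 10 basement membrane genes passed the test. At an unadjusted p under 0.05, 22 of the 49 were lower and 3 higher, against 19.1% and 8.23% of all genes, and 35 of 49 had a log2 fold change below 0, against 67.0% of all genes.

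**Figure D1:**
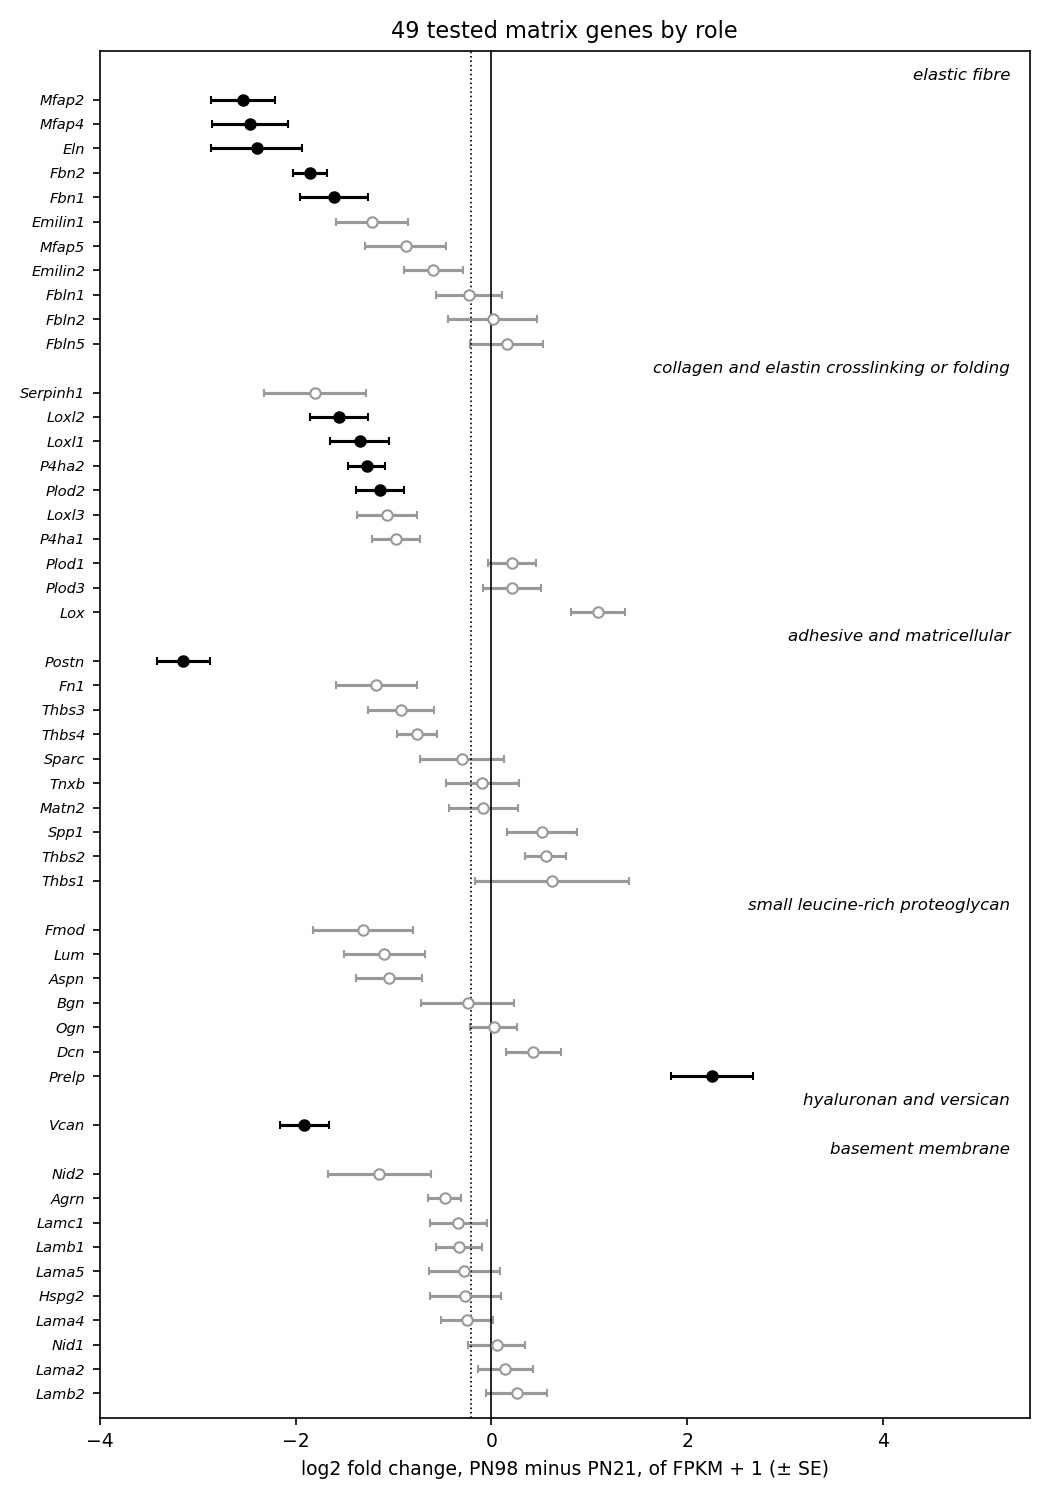
Log2 fold change of FPKM + 1, PN98 minus PN21, for the 49 matrix genes tested, ordered by role, with the SE from limma over 4 mice per age. Filled black points have an adjusted p under 0.05 (11 below 0 and 1, *Prelp*, above 0), open grey points do not, and the dotted line marks the median of all genes tested (−0.21).

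The split between directions moved with the scaling of the libraries. Median of ratios scaling moved the median of all genes tested from −0.21 to −0.020 and scaling to the summed FPKM of nuclear genes moved it to 0.010. After the former, 12 matrix genes were lower and 3 higher, against 2.91% and 4.78% of all genes (7.69% in either direction). After the latter, 8 were lower and 2 higher, against 1.68% and 3.46% (5.14% in either direction). When each mouse was centred on the median of its fibroblast and adipose progenitor markers, every value shifted upward alike, the median of all genes tested was 0.70, and 5 matrix genes were lower (*Postn*, *Mfap2*, *Mfap4*, *Eln* and *Vcan*) and 11 higher, against 0.728% and 18.8% of all genes (19.5% in either direction). These 5 genes were lower, and *Prelp* was higher, under all 4 scalings. On the same scale with only the most abundant transcript of each gene, 9 were lower and 1 higher, against 2.24% and 1.79% of all genes (4.03% in either direction, limma). With 1 transcript per gene, the study's filter on transcripts and no pseudocount, 3 changes made together, 5 were lower and none higher, against 0.895% and 1.02% (1.92% in either direction). With protein-coding transcripts of at least 1000 bases alone, 14 were lower and 2 higher, against 5.12% and 4.49% (9.61% in either direction).

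**Figure D2:**
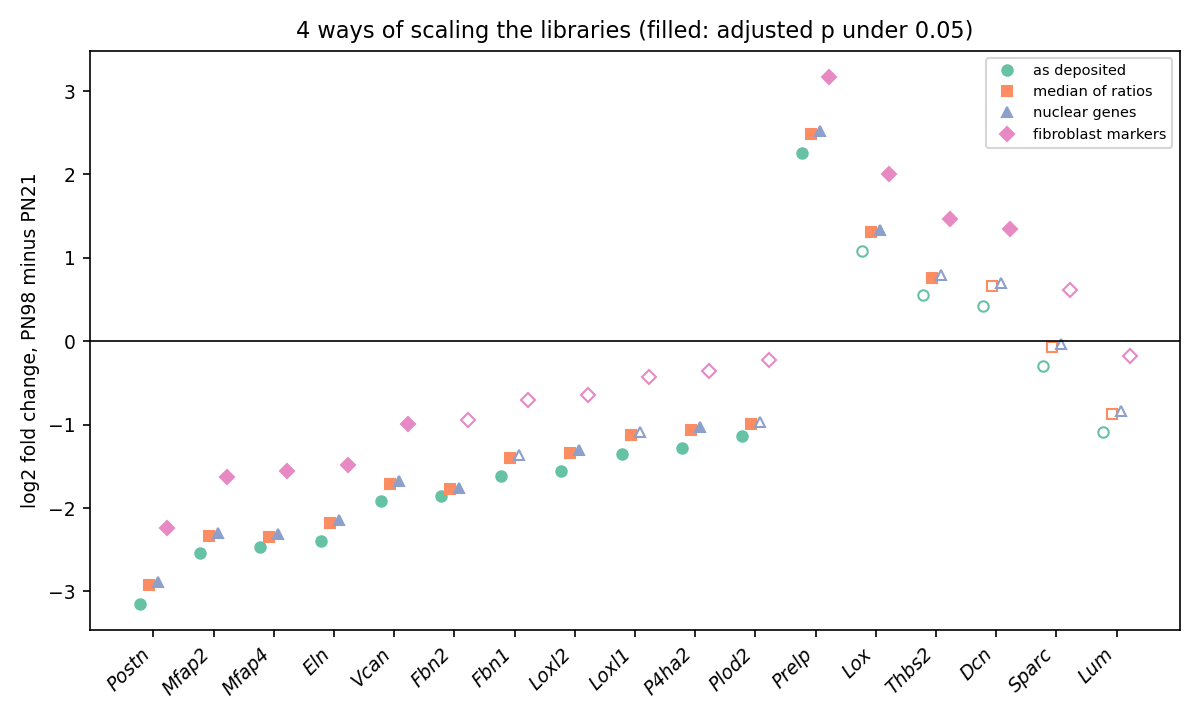
Log2 fold change, PN98 minus PN21, of the 12 genes that passed the test and of *Lox*, *Thbs2*, *Dcn*, *Sparc* and *Lum* under 4 scalings of the libraries. Filled symbols have an adjusted p under 0.05. Centring on fibroblast and adipose progenitor markers raised every value shown, and *Postn*, *Mfap2*, *Mfap4*, *Eln*, *Vcan* and *Prelp* stayed filled throughout.

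The bases before the start sites of *Postn*, *Mfap2*, *Vcan* and *Prelp* are shown because *Postn*, *Mfap2* and *Vcan* fell with any single mouse left out and *Prelp* was the gene that rose. Each sequence gives the 150 bases that end just before the start site, 5′ to 3′ on the gene's strand, from RefSeq on GRCm38.p6. Capitals mark matches on either strand to 4 short motifs: TATAAA (the letters of the TATA box), GGGCGG (those of the GC box), CCAAT (those of the CCAAT box) and TGACTCA (those bound by AP-1), and none of the marked matches in these 4 sequences overlap.
Postn: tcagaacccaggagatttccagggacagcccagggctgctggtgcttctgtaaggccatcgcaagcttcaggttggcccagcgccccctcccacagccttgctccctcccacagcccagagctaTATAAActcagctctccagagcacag
Mfap2: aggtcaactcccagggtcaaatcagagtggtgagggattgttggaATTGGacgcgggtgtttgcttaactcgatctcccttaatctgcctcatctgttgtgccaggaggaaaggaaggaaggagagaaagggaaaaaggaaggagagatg
Vcan: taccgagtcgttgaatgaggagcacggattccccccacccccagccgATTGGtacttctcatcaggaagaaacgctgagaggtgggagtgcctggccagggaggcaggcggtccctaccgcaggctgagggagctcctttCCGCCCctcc
Prelp: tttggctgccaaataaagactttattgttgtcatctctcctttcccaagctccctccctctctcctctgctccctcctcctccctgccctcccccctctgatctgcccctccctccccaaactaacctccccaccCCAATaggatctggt
The windows were chr3:54360957-54361106 (plus strand) for *Postn*, chr4:141010274-141010423 (plus) for *Mfap2*, chr13:89742513-89742662 (minus) for *Vcan* and chr1:133921402-133921551 (minus) for *Prelp*. *Postn* had a TATAAA match whose first base lies 26 bases before the start site, *Prelp* had a CCAAT match 15 bases before it, *Mfap2* had a CCAAT match 105 bases before it, and *Vcan* had a CCAAT match 103 and a GGGCGG match 10 bases before it. Of the 36 matrix genes with an entry read here, 7 held TATAAA within 250 bases before the start, 19 held GGGCGG, 12 held CCAAT and 1 held TGACTCA. Among all 32851 promoter entries the shares were 12.4%, 32.7%, 33.8% and 4.46%. A match describes letters and is not a binding site.

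Elastic fibre genes. Of the 11, all were tested, 5 fell and none rose, and the median log2 fold change was −1.22. Without *Fbn2* and *Mfap4*, which passed the filter through PN21 alone, 3 of 9 fell and the median was −0.87. Over all genes tested, 2.96% were lower and 2.38% higher, with a median of −0.21. *Eln* (chr5:134702593-134747323 on mm10), which codes for the elastin core of the fibre, was expressed at 170.2, 61.9, 139 and 105.8 FPKM at PN21 and at 36.4, 29.8, 16.7 and 9.16 FPKM at PN98. The lowest PN21 value lay above the highest PN98 value, and the mean was 5.18-fold higher at PN21 (119 ± 46.3 against 23.0 ± 12.3 FPKM, SD, n = 4 each). On the log2(FPKM + 1) scale *Eln* changed by −2.40 ± 0.46 (SE, limma adjusted p = 0.0266).

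*Fbn2* and *Fbn1* code for the fibrillins of the microfibril scaffold, of which fibrillin-2 is known as the form of developing tissue. *Fbn2* stood at 2.70, 1.76, 3.48 and 3.12 FPKM at PN21 and at 0.0374, 0.0189, 0.0301 and 0.0144 FPKM at PN98. Its mean was 109.6-fold higher at PN21, the widest separation of means among the 49 genes tested, although it passed the filter on mean FPKM through the PN21 mice alone. Because the pseudocount of 1 exceeds the PN98 values, its log2 fold change of −1.85 ± 0.18 (limma adjusted p = 0.00245) understates that difference. *Fbn1* (chr2:125300594-125507993) had 47.6, 25.7, 46.9 and 35.6 FPKM at PN21 and 15.4, 12.8, 16.5 and 5.56 FPKM at PN98, again without overlap (3.10-fold higher at PN21, log2 fold change −1.61 ± 0.35, limma adjusted p = 0.0385). At PN98 the lowest *Fbn1* value was 5.56 FPKM and the highest *Fbn2* value 0.0374 FPKM.

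Of the 3 genes of microfibril-associated glycoproteins, *Mfap2* and *Mfap4* fell. *Mfap2* (chr4:141010418-141015984), a component of fibrillin microfibrils, fell from 53.3, 25.1, 38.7 and 63.9 FPKM at PN21 to 10.04, 5.94, 6.64 and 4.43 FPKM at PN98, a 6.69-fold difference of means (log2 fold change −2.54 ± 0.33, limma adjusted p = 0.00699). Over protein-coding transcripts of at least 1000 bases, *Mfap2* had means of 29.0 FPKM at PN21 and 3.33 FPKM at PN98 (log2 fold change −2.71, limma adjusted p = 0.00238). *Mfap4* (chr11:61485431-61488900), which binds elastin and collagen, fell from 12.3, 5.58, 16.1 and 6.59 FPKM to 2.07, 0.650, 1.03 and 0.179 FPKM (10.3-fold, log2 fold change −2.47 ± 0.39, limma adjusted p = 0.015). It too passed the filter through PN21 alone. In neither gene did the ages overlap. *Mfap5*, the paralogue of *Mfap2* in microfibrils, had overlapping values of 86.0, 58.2, 71.1 and 144 FPKM at PN21 and 64.9, 39.7, 73.9 and 22.8 FPKM at PN98 and did not pass (log2 fold change −0.87 ± 0.42, limma adjusted p = 0.209). Over its protein-coding transcripts of at least 1000 bases, however, *Mfap5* passed as lower (means of 26.2 and 9.15 FPKM, log2 fold change −1.44, limma adjusted p = 0.0395).

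The fibulins, which link elastin to microfibrils and basement membranes, did not pass. *Fbln2* ranged over 17.4 to 34.8 FPKM at PN21 and 10.99 to 49.6 FPKM at PN98 (log2 fold change 0.011 ± 0.45), with 53.1% of its FPKM on a retained-intron transcript and means of 11.1 and 13.5 FPKM over long protein-coding transcripts. *Fbln1* and *Fbln5* had log2 fold changes of −0.23 ± 0.34 and 0.16 ± 0.37. *Emilin1* and *Emilin2*, glycoproteins at the interface of elastin and microfibrils, had −1.22 and −0.59, with overlapping ages. The 11 elastic fibre genes together held 6.21% to 8.93% of the summed FPKM of the 55 genes at PN21 and 3.47% to 4.64% at PN98. This share is taken within a mouse and does not depend on the scaling of its library.

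Crosslinking and folding genes. Of 12 genes, 10 were tested, 4 fell (*Loxl2*, *Loxl1*, *P4ha2* and *Plod2*) and none rose, with a median log2 fold change of −1.10. Over all genes tested, 2.96% were lower and 2.38% higher, with a median of −0.21. Within the lysyl oxidase family the values took both signs. *Loxl1* (chr9:58287738-58313186), needed for elastin crosslinking, fell from 50.0, 29.0, 30.9 and 47.6 FPKM to 16.9, 12.3, 22.5 and 9.16 FPKM (2.59-fold, log2 fold change −1.35 ± 0.31, limma adjusted p = 0.0447). *Loxl2* (chr14:69609068-69695834), which acts on collagen IV, fell from 53.6, 31.8, 37.4 and 47.0 FPKM to 17.5, 13.1, 18.7 and 7.60 FPKM (2.99-fold, log2 fold change −1.56 ± 0.30, limma adjusted p = 0.0256). For both, every PN21 mouse lay above every PN98 mouse. Over protein-coding transcripts of at least 1000 bases, *Loxl2* had means of 13.3 FPKM at PN21 and 4.90 FPKM at PN98 (log2 fold change −1.30, limma adjusted p = 0.0339). *Lox*, the founding member, had 14.9, 8.85, 15.4 and 11.96 FPKM at PN21 and 35.3, 30.5, 33.0 and 16.5 FPKM at PN98, so that all 4 PN98 mice lay above all 4 PN21 mice. Its mean was 2.26-fold higher at PN98, but the adjusted p was 0.0617 (limma, log2 fold change 1.09 ± 0.28). That p was 0.0131 after median of ratios scaling and 0.0431 when libraries were scaled to nuclear genes. *Loxl3* had 4.44 to 6.77 FPKM at PN21 and 1.009 to 4.38 FPKM at PN98 (log2 fold change −1.07 ± 0.31, limma adjusted p = 0.0835), and *Loxl4* stayed under the filter, at 0.437 to 0.933 and 0.369 to 0.819 FPKM.

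Prolyl 4-hydroxylase subunits make the hydroxyproline that stabilises the collagen helix. *P4ha2* (chr11:54100095-54131665) fell from 24.2, 20.4, 18.5 and 25.3 FPKM to 10.7, 8.26, 9.07 and 6.36 FPKM without overlap (2.57-fold, log2 fold change −1.27 ± 0.19, limma adjusted p = 0.0122). *P4ha1* also did not overlap between ages, with 18.4, 15.9, 15.1 and 19.97 FPKM against 11.6, 7.56, 10.3 and 5.10 FPKM, and missed the threshold (log2 fold change −0.97 ± 0.24, limma adjusted p = 0.0581). *P4ha3* was under the filter, at 1.15, 0.593, 0.821 and 0.491 FPKM at PN21 and 0.198, 0.0420, 0 and 0 FPKM at PN98, where m114 and m125 are listed at 0.

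Lysyl hydroxylases modify the lysines from which crosslinks start. *Plod2* (chr9:92542223-92608428), which acts on the telopeptides, fell from 5.86, 3.62, 4.67 and 4.01 FPKM to 2.36, 1.67, 1.64 and 0.616 FPKM (2.89-fold, log2 fold change −1.14 ± 0.25, limma adjusted p = 0.0393). Most of its level in m49 was assigned to another transcript than in the other mice, and the most abundant transcript alone, with 0.0053 FPKM in m49, gave −0.62 on the log2(FPKM + 1) scale (adjusted p = 0.497, limma). With no pseudocount that transcript gave 0.65 (adjusted p = 0.87, limma). *Plod1* and *Plod3*, which were more abundant, ranged over 21.8 to 36.0 and 46.1 to 80.9 FPKM at PN21 and over 20.8 to 38.6 and 44.3 to 98.1 FPKM at PN98 and did not pass (log2 fold change 0.21 ± 0.24 and 0.21 ± 0.30). *Serpinh1*, the collagen chaperone, had 10.5, 5.01, 3.46 and 9.51 FPKM at PN21 and 1.80, 0.561 and 3.97 FPKM in m35, m106 and m114, with m125 listed near 0 at 3.55e-05 FPKM. It had the lowest log2 fold change of the crosslinking and folding genes tested and did not pass (−1.80 ± 0.52, limma adjusted p = 0.086).

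**Figure D3:**
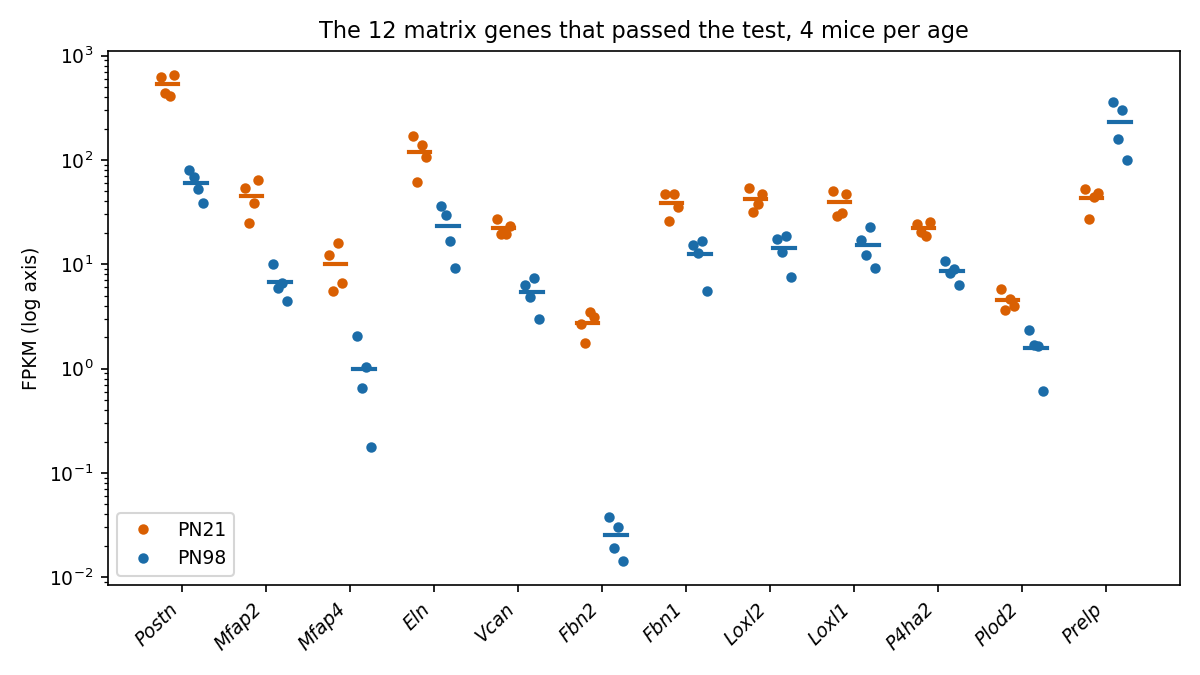
FPKM on a log axis of the 12 matrix genes that passed the test, with 1 point per mouse, 4 mice per age and a bar at the mean. For each of the 12 genes the PN21 and PN98 points do not overlap, with *Prelp* alone higher at PN98, and *Fbn2* lies between 0.0144 and 0.0374 FPKM at PN98.

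Adhesive and matricellular proteins. Of 12 genes, 10 were tested and 1 fell, where 2.96% of all genes tested were lower. *Postn* (chr3:54361109-54391037) codes for periostin, a matricellular protein that binds collagen and fibronectin and is produced in growing and repairing connective tissue. It was expressed at 625, 437, 413 and 651 FPKM at PN21 and at 79.4, 69.2, 52.6 and 38.8 FPKM at PN98, with means of 532 ± 124 and 60.0 ± 17.96 FPKM (SD, n = 4 each). The 8.86-fold difference gave the largest log2 fold change of the 49 genes (−3.15 ± 0.27, limma adjusted p = 0.00149). Within a mouse, *Postn* took 9.70% to 12.2% of the summed FPKM of the 55 genes at PN21 and 0.965% to 2.29% at PN98, and it moved from rank 2 to rank 11 by mean FPKM. Most of its FPKM (73.5%) was assigned to a transcript of 655 bases, and short transcripts raise summed FPKM. Over its protein-coding transcripts of at least 1000 bases the means were 122 and 6.96 FPKM (log2 fold change −4.01, limma adjusted p = 0.000367).

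*Sparc*, a collagen-binding matricellular protein, was the most abundant of the 55 genes at both ages and did not pass. It had 2511, 1538, 1919 and 2583 FPKM at PN21 and 2570, 1370, 3050 and 777 FPKM at PN98 (log2 fold change −0.30 ± 0.43, limma adjusted p = 0.665), and it held 43.0% to 46.7% of the summed FPKM of the 55 genes at PN21 and 41.9% to 55.9% at PN98. *Fn1*, which codes for fibronectin, had 123, 52.9, 95.1 and 83.5 FPKM at PN21 and 59.5, 38.8, 48.1 and 16.6 FPKM at PN98, overlapping only through m49 and m35 (log2 fold change −1.18 ± 0.41, limma adjusted p = 0.127).

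The thrombospondins, matricellular proteins that bind cells, calcium and growth factors, took both signs and none passed. *Thbs3* and *Thbs4* had log2 fold changes of −0.93 ± 0.33 and −0.76 ± 0.21 (limma adjusted p = 0.134 and 0.0743) with every PN21 mouse above every PN98 mouse. *Thbs2* had 8.76, 6.00, 9.67 and 7.74 FPKM at PN21 and 16.4, 11.4, 12.3 and 9.30 FPKM at PN98 (log2 fold change 0.55 ± 0.21, limma adjusted p = 0.147), and it passed with median of ratios scaling (0.0245). *Thbs1*, an early-response gene of stressed tissue, ranged at PN98 from 1.78 FPKM in m125 to 33.8 FPKM in m35. *Tnxb*, *Matn2* and *Spp1* had log2 fold changes of −0.093 ± 0.38, −0.081 ± 0.36 and 0.52 ± 0.36. *Tnc* and *Comp* had means under 1 FPKM over the 8 mice and were not tested. *Comp*, which codes for cartilage oligomeric matrix protein, ranged over 0.424 to 0.898 FPKM at PN21 and 0.147 to 1.79 FPKM at PN98. *Tnc*, which codes for tenascin-C, had 1.41, 0.583, 1.73 and 0.553 FPKM at PN21, and at PN98 0.520, 0.285 and 0.193 FPKM in m35, m114 and m125, with m106 listed near 0.

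Small leucine-rich proteoglycans. Of 7 genes, 1 rose and none fell, where 2.38% of all genes tested were higher and 2.96% lower. *Prelp* (chr1:133910304-133921414), which codes for a leucine-rich repeat protein that anchors basement membranes to collagen, was expressed at 53.1, 26.9, 44.1 and 47.8 FPKM at PN21 and at 359, 159.8, 298 and 98.8 FPKM at PN98. The lowest PN98 value lay above the highest PN21 value, and the mean rose 5.33-fold, from 43.0 ± 11.3 to 229 ± 120.4 FPKM (SD, n = 4 each, log2 fold change 2.26 ± 0.42, limma adjusted p = 0.0247). Its share of the summed FPKM of the 55 genes was 0.754% to 1.04% at PN21 and 5.28% to 6.96% at PN98, and by mean FPKM it moved from rank 16 to rank 3. Within m125, the mouse with the lowest PN98 level in all 49 genes, *Prelp* still stood at 98.8 FPKM, above every PN21 mouse.

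*Dcn*, which codes for decorin, and *Bgn*, which codes for biglycan, were the most abundant of the group. *Dcn* had 251, 223, 250.1 and 476 FPKM at PN21 and 471, 378, 443 and 278 FPKM at PN98 (log2 fold change 0.43 ± 0.28, limma adjusted p = 0.342), and m145 alone of the PN21 mice lay above the lowest PN98 value, with a value above all 4 PN98 mice. *Bgn* had 183, 124, 195 and 156 FPKM at PN21 and 259, 119, 216 and 52.2 FPKM at PN98 (log2 fold change −0.24 ± 0.47, limma adjusted p = 0.755). Together the 7 genes held 10.96% to 14.8% of the summed FPKM of the 55 genes at PN21 and 19.3% to 25.2% at PN98. Their own summed FPKM overlapped between the ages (466 to 818 at PN21 and 467 to 1182 at PN98). Of the 7 log2 fold changes, 4 were below 0 and 3 above, with a median of −0.24. A share also rises when other shares fall, and that of *Postn* fell.

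**Figure D4:**
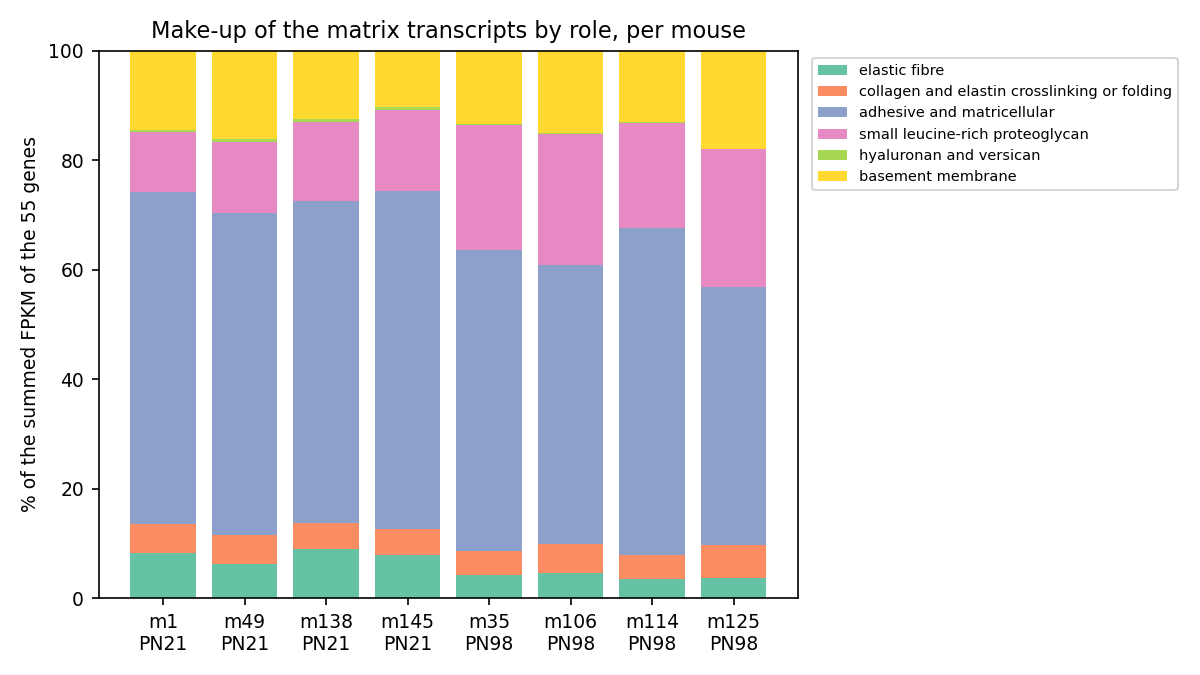
Share of the summed FPKM of the 55 matrix genes, in %, held by each role in each of the 8 mice, as stacked bars. The small leucine-rich proteoglycans hold 19.3% or more in each PN98 mouse and 14.8% or less in each PN21 mouse, and the elastic fibre genes hold less in each PN98 mouse than in any PN21 mouse. The summed FPKM of the small leucine-rich proteoglycans overlapped between the ages.

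6 of these genes lie as 3 neighbouring pairs in the genome, and their values are given by pair. *Prelp* and *Fmod* lie on chromosome 1 with 116 kb between them. Where *Prelp* rose, *Fmod*, which codes for fibromodulin, had 4.44, 4.08, 8.91 and 5.91 FPKM at PN21 and 6.52, 1.39, 1.22 and 0.254 FPKM at PN98 (log2 fold change −1.31 ± 0.51, limma adjusted p = 0.153). *Dcn* and *Lum* lie on chromosome 10 with 47.0 kb between them. *Lum*, which codes for lumican, had 57.1, 55.2, 56.9 and 76.9 FPKM at PN21 and 43.9, 27.0, 45.5 and 11.2 FPKM at PN98, without overlap, and did not pass (log2 fold change −1.09 ± 0.41, limma adjusted p = 0.145). *Ogn* and *Aspn* lie on chromosome 13 with 40.5 kb between them. *Ogn*, which codes for osteoglycin, ranged over 19.0 to 33.7 FPKM at PN21 and 19.0 to 34.9 FPKM at PN98 (log2 fold change 0.022 ± 0.24), and *Aspn*, which codes for asporin, over 14.2 to 32.3 and 6.75 to 15.2 FPKM (log2 fold change −1.04 ± 0.33, limma adjusted p = 0.104). The differences between partners were not tested.

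**Figure D5:**
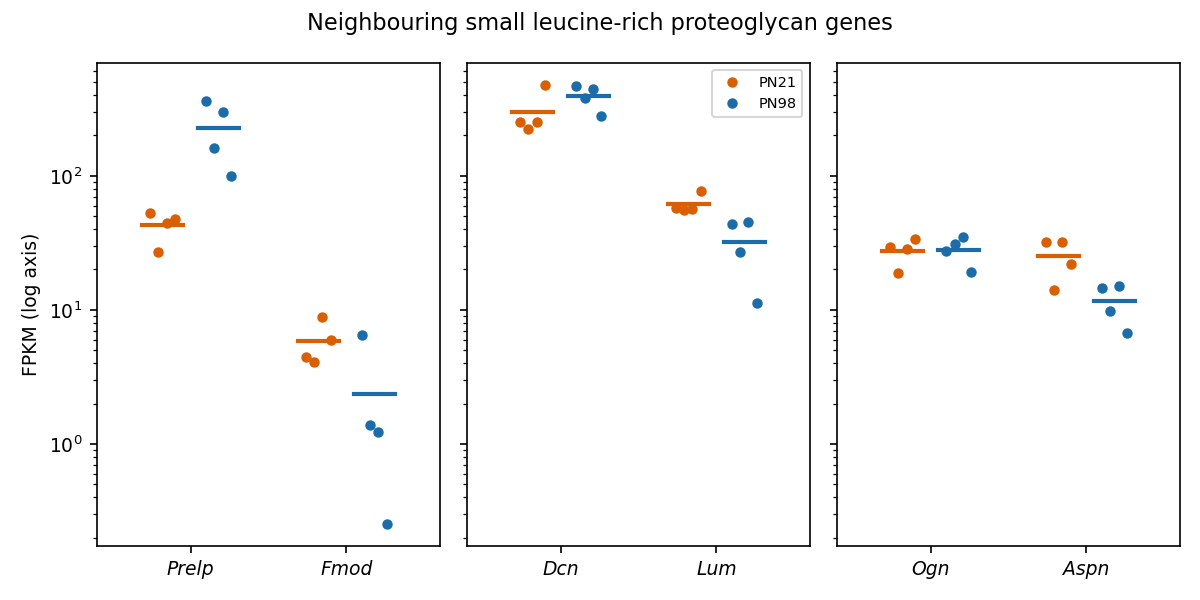
FPKM on a log axis of 3 neighbouring pairs of small leucine-rich proteoglycan genes, with 1 point per mouse, 4 mice per age and a bar at the mean. All PN98 points of *Prelp* lie above its PN21 points and all PN98 points of *Lum* lie below its PN21 points, the ages overlap for *Fmod*, *Dcn*, *Ogn* and *Aspn*, and of these 6 genes *Prelp* alone passed the test.

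Versican and hyaluronan. *Vcan* (chr13:89655312-89742509), the large proteoglycan that binds hyaluronan, fell from 27.0, 19.3, 19.6 and 23.1 FPKM at PN21 to 6.38, 4.81, 7.31 and 2.98 FPKM at PN98, without overlap. The means of 22.3 ± 3.60 and 5.37 ± 1.90 FPKM (SD, n = 4 each) differed 4.15-fold (log2 fold change −1.91 ± 0.25, limma adjusted p = 0.0074). Its most abundant transcript is 294 bases long, and over the protein-coding transcripts of at least 1000 bases the means were 2.79 and 1.07 FPKM (log2 fold change −0.86, limma adjusted p = 0.0249). The hyaluronan synthases *Has1* and *Has2* had means under 1 FPKM at both ages and were not tested. *Has2* had 0.952, 0.968, 1.03 and 0.657 FPKM at PN21 and 0.304, 0.455, 0.480 and 0.143 FPKM at PN98, whereas *Has1* ranged over 0.144 to 0.512 and 0.136 to 0.635 FPKM.

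Basement membrane. All 10 genes were tested and none passed limma's test at an adjusted p under 0.05, and 1 had an unadjusted p under 0.05. Their log2 fold changes had a median of −0.27 (−0.049 with median of ratios scaling), against −0.21 over all genes. *Hspg2*, which codes for perlecan, had 202, 119, 109 and 96.9 FPKM at PN21 and 152, 76.8, 156 and 65.6 FPKM at PN98 (log2 fold change −0.27 ± 0.36). *Lama4*, the laminin chain of adipocyte and vessel basement membranes, had 112, 116, 83.9 and 137 FPKM and 109, 74.9, 137 and 65.6 FPKM (−0.25 ± 0.27). *Nid1*, which codes for nidogen-1, the bridge between laminin and collagen IV, had 131, 103, 97.9 and 82.7 FPKM and 139.7, 103, 144.8 and 61.6 FPKM (0.056 ± 0.29). For these 3 genes the ages overlapped. *Nid2* had the log2 fold change farthest from 0 in the group and did not pass (−1.14 ± 0.53, limma adjusted p = 0.2), and m106 and m125 stood apart below the others at 5.01 and 3.70 FPKM. The other laminin chains ranged from −0.34 for *Lamc1* to 0.26 for *Lamb2*. *Agrn*, which codes for agrin, did not overlap between ages (−0.48 ± 0.17, limma adjusted p = 0.129), but 0.023% of its FPKM was assigned to transcripts that GENCODE vM21 classes as protein-coding, and 39.1% to a transcript that vM21 does not hold. Short or non-coding transcripts also held most of the FPKM of *Hspg2*, *Lama4* and *Lama5*, so their levels are less certain than those of *Nid1*.

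Ratios of 2 genes within a mouse do not depend on how its library was scaled, apart from the pseudocount, and 8 pairs were compared (log2 ratio of FPKM + 1, mean ± SD, n = 4 each, two-sided exact permutation test over 70 splits, with a smallest possible p of 0.0286). In 4 pairs the ages did not overlap on this scale. The ratio of *Mfap2* to *Mfap5* was −0.97 ± 0.24 at PN21 and −2.64 ± 0.48 at PN98. It used FPKM summed over all transcripts of each gene. Over protein-coding transcripts of at least 1000 bases, both genes had negative log2 fold changes (−2.71 for *Mfap2* and −1.44 for *Mfap5*), and their ratio was not compared there. The ratio of *Plod2* to *Plod1* was −2.34 ± 0.08 at PN21 and −3.68 ± 0.16 at PN98. The ratio of *Eln* to *Fbn1* was 1.54 ± 0.24 at PN21 and 0.75 ± 0.55 at PN98, and that of *P4ha2* to *P4ha1* was 0.33 ± 0.04 at PN21 and 0.029 ± 0.20 at PN98. Each of these 4 gave an exact permutation p of 0.0286 and an adjusted p of 0.0571 over the 8 pairs, so that none passed the correction. For a pair at the smallest possible p, the adjusted p moves with the results of the other pairs alone. All 4 ratios were lower at PN98. The ratio of *Bgn* to *Dcn* differed by −0.67 between the means of the ages, *Tnc* to *Tnxb* by −0.61, *Fbn2* to *Fbn1* by −0.24 and *Lama5* to *Lama4* by −0.029, with overlapping ages (exact permutation, adjusted p = 0.229, 0.229, 0.555 and 0.943). Pairs with a low member depended on the pseudocount. *Fbn2* to *Fbn1* differed by −2.78 with a pseudocount of 0.1 (exact permutation, adjusted p = 0.0457) and by 0.77 with 10, and with no pseudocount the ratio of FPKM was 0.0566 to 0.0876 at PN21 and 0.00148 to 0.00259 at PN98, without overlap. *Tnc* to *Tnxb* did not overlap either with no pseudocount (0.0355 to 0.103 at PN21 and at most 0.0244 at PN98), whereas *P4ha2* to *P4ha1* then overlapped (1.23 to 1.32 and 0.878 to 1.25).

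The calls differed in how they held when 1 mouse at a time was left out. *Postn*, *Mfap2*, *Vcan* and *Fbn2* passed without any 1 of the 8 mice, with adjusted p of 0.00259 to 0.00844, 0.00485 to 0.0335, 0.00623 to 0.0357 and 0.00321 to 0.0152 (limma), where *Fbn2* entered the test through the PN21 mice alone. *Mfap4* and *P4ha2* missed only without m106 (adjusted p = 0.0576 and 0.0516). *Loxl2* passed without m35, m49, m114 or m125 and missed without m1, m138, m145 or m106 (0.014 to 0.0851 over the 8 fits). *Eln* passed without m35, m49 or m125 (0.0114 to 0.0813), *Fbn1*, *Plod2* and *Prelp* passed without m35 or m125 (0.0205 to 0.103, 0.014 to 0.104 and 0.016 to 0.0718), and *Loxl1* passed only without m35 (0.0266 to 0.131). For all 12 genes the direction was kept in each of the 8 fits. Under the other settings, *Fbn1*, *Loxl1* and *Plod2* also missed with nuclear-sum scaling (0.0764, 0.083 and 0.0829), with a pseudocount of 0.1 (0.0515, 0.0552 and 0.0598) and, with *Eln* (0.0507), without a filter (0.0629, 0.0675 and 0.0543). *Fbn1*, *Fbn2*, *Loxl1*, *Loxl2*, *P4ha2* and *Plod2* missed when mice were centred on fibroblast markers. This centring was applied after the pseudocount was added. For *Fbn2*, which was at most 0.0374 FPKM at PN98, the shift acted mainly on the pseudocount, so its miss says little about its level. With only the most abundant transcript on the log2(FPKM + 1) scale, *Loxl1* and *Plod2* missed (0.0514 and 0.497). With 1 transcript per gene, the study's filter and no pseudocount together, *Eln*, *Fbn1*, *Loxl1*, *Mfap4*, *Plod2*, *Prelp* and *Vcan* missed. With both m35 and m125 left out, *Loxl1* missed (0.0836), and in all 12 genes were lower and 2 higher, against 6.36% and 2.42% of all genes. With m35 alone left out, 16 were lower and 1 higher, against 17.8% and 4.26% of all genes, and with m106 left out, 4 were lower and none higher, against 0.580% and 0.580% (limma).

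Among 84 further matrix genes tested, taken from lists of collagens and their processing, other proteoglycans, other basement membrane genes and growth factor binding matrix, 14 were lower and 2 higher at PN98 (limma), and the median over the 84 was −0.36 on the log2 scale. Of all genes tested, 2.96% were lower and 2.38% higher, with a median of −0.21, and the counts per list below stand beside these shares. Of 12 fibril and microfibril collagens, 3 fell, and *Col1a1*, the main chain of type I collagen, went from 777 ± 317 to 99.5 ± 50.4 FPKM (log2 fold change −3.03, adjusted p = 0.0182), *Col1a2* from 865 ± 282 to 149 ± 66.8 FPKM (log2 fold change −2.61, adjusted p = 0.018) and *Col3a1* from 1921 ± 552 to 341 ± 201 FPKM (log2 fold change −2.70, adjusted p = 0.0262). Of 18 collagen processing genes, 4 fell, and these were *P3h4*, a partner of lysyl hydroxylase (−1.34), *Adamts14*, a procollagen N-proteinase (−1.24), *Fkbp10*, a prolyl isomerase (−1.90), and *Pcolce*, an enhancer of procollagen C-proteinase (−2.12). Of 17 other proteoglycans and hyaluronan genes, 1 fell and 1 rose: *Gpc3*, a glypican, went from 41.7 ± 15.2 to 6.61 ± 1.53 FPKM (log2 fold change −2.45, adjusted p = 0.00404), and *Podn*, a small leucine-rich proteoglycan, from 10.5 ± 2.66 to 39.8 ± 15.5 FPKM (log2 fold change 1.76, adjusted p = 0.0209). Both *Podn* and *Prelp* rose. Of 27 elastic fibre and growth factor binding genes, 5 fell, led by *Cthrc1*, a secreted protein of collagen-producing cells, which went from 10.5 ± 2.77 to 0.670 ± 0.552 FPKM (log2 fold change −2.80, adjusted p = 0.00277), and by *Srpx*, *Fstl1* and *Vtn* (−1.29, −1.86 and −1.83). *Cthrc1* passed the filter on mean FPKM through the PN21 mice alone. The counts of these further lists keep any gene that passed through a single age. The remaining 2 of these 27 that passed, named after their values were seen, were *Efemp2*, which is needed for elastic fibre assembly and fell (−1.23), and *Smoc1*, which rose (1.08). Of 10 other basement membrane genes, 1 fell (*Col4a5*, −1.05).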

How the data were processed

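ING WAT of 4 mice per age (PN21 and PN98) was analysed by poly(A)+ RNA sequencing, and groups were taken from the labels. Per the submitters' processing notes and the study's methods, the authors used CASAVA 1.8.2, FastQC, STAR 2.3.0 and Cufflinks 2.1.1 on mm10, and they deposited 1 FPKM value per transcript and mouse with a decimal comma. No other unit was used. The authors' deposited fold changes and p-values of their own comparison, which stand in a second table, were not used.

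In 40426 of 91969 transcripts a decimal mark had been lost. Marks were restored from the authors' average, standard deviation and score, which cover 10 values of which 8 were used here, for 40173 transcripts and read from the second table for 78, and 175 that could not be restored were left out, none of a matrix gene described here. In 4951 of 4951 transcripts that could be checked, restored values equalled those of the second table. FPKM was summed per gene (GENCODE vM21, GRCm38, the same build as mm10). Genes with a mean of at least 1 FPKM over 8 mice were compared as log2(FPKM + 1), PN98 minus PN21, with limma 3.58.1 (R 4.3.3) and Benjamini-Hochberg adjustment over all genes tested. Ratios were compared with exact permutation tests (scipy 1.17.1). The limma step was tested on simulated data. No 2 mice had identical values. The labels do not say whether mice shared a litter. Depth is unknown, so no counting error is given. The p-values of limma set the difference between ages against the variation among mice of an age, moderated across genes. That variation also holds any counting error.

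Named genes were those that passed, the 3 most abundant and the one with the largest change of each role, those in a ratio, those under the filter, and up to 4 per further list. Cell type marker lists covered adipocytes, fibroblasts and adipose progenitors, endothelial, mural, epithelial, Schwann and skeletal muscle cells, macrophages and lymphocytes. The members and lists were chosen with earlier results of these data known. Other scalings, pseudocounts (0.1 and 10), filters, transcript levels, limma settings and leaving out each mouse were tried. Centring on fibroblast markers, leaving out m35 and m125 together and summing only protein-coding transcripts of at least 1000 bases, and using only the most abundant transcript on the log2(FPKM + 1) scale, were added after seeing the data.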

Additional observations from a re-analysis of the deposited data

Results flagged for a closer look

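In 4 of 98 sets of 4 mice (49 genes at 2 ages), 1 mouse stood apart from the other 3 of its age by Dixon's criterion, which chance alone meets in about 1 in 20 sets. At PN21, *Dcn* and *Lum*, which are neighbours on chromosome 10, were both highest in m145. *Dcn* had 476 FPKM against 223 to 252 FPKM in the other PN21 mice, and *Lum* had 76.9 FPKM against 55.2 to 57.1 FPKM. *Matn2*, which codes for a filament-forming matrix adaptor, was lowest in m138 (12.3 FPKM against 17.2 to 18.2 FPKM). *Spp1*, which codes for osteopontin, was lowest in m49 (0.451 FPKM against 0.881 to 0.969 FPKM).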

How the results depend on the processing

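The count of matrix genes that passed was 12 (1 higher and 11 lower). It was 24 (3 higher and 21 lower) with array weights, 16 (11 higher and 5 lower) with centring on fibroblast markers, 10 (1 higher and 9 lower) with only the most abundant transcript, 5 (0 higher and 5 lower) with 1 transcript per gene, the study's transcript filter and no pseudocount together, 15 (3 higher and 12 lower) with median of ratios scaling, 10 (2 higher and 8 lower) with nuclear-sum scaling, 14 (2 higher and 12 lower) with m35 and m125 both left out, 14 (2 higher and 12 lower) with the study's filter, 16 (2 higher and 14 lower) with long coding transcripts only and 9 (1 higher and 8 lower) with no filter. Among the 84 other matrix genes 16 (2 higher and 14 lower) passed. The count was 39 (8 higher and 31 lower) with array weights, 28 (20 higher and 8 lower) with centring on fibroblast markers, 10 (1 higher and 9 lower) with only the most abundant transcript, 4 (0 higher and 4 lower) with 1 transcript per gene, the study's transcript filter and no pseudocount together, 22 (8 higher and 14 lower) with median of ratios scaling, 15 (4 higher and 11 lower) with nuclear-sum scaling, 15 (3 higher and 12 lower) with m35 and m125 both left out, 22 (4 higher and 18 lower) with the study's filter, 21 (4 higher and 17 lower) with long coding transcripts only and 11 (1 higher and 10 lower) with no filter. Of all genes, 857 (382 higher and 475 lower) passed. The count was 4671 (1158 higher and 3513 lower) with array weights, 3139 (3022 higher and 117 lower) with centring on fibroblast markers, 647 (288 higher and 359 lower) with only the most abundant transcript, 253 (135 higher and 118 lower) with 1 transcript per gene, the study's transcript filter and no pseudocount together, 1235 (767 higher and 468 lower) with median of ratios scaling, 825 (555 higher and 270 lower) with nuclear-sum scaling, 1404 (387 higher and 1017 lower) with m35 and m125 both left out, 1195 (506 higher and 689 lower) with the study's filter, 1033 (483 higher and 550 lower) with long coding transcripts only and 1004 (438 higher and 566 lower) with no filter. Leaving out 1 mouse gave 4 to 17 matrix genes (0 to 2 higher, 4 to 16 lower), 4 to 27 other matrix genes (0 to 4 higher, 3 to 23 lower) and 186 to 3536 of all genes (93 to 683 higher, 93 to 2853 lower). The cause of these shifts was not tested.

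With a pseudocount of 0.1 the ratios *Eln*/*Fbn1* (−0.77), *Mfap2*/*Mfap5* (−1.81), *Plod2*/*Plod1* (−1.79), *Fbn2*/*Fbn1* (−2.78) and *Tnc*/*Tnxb* (−1.76) passed the correction (exact permutation, adjusted p = 0.0457). For *Eln*/*Fbn1*, *Mfap2*/*Mfap5* and *Plod2*/*Plod1* the unadjusted p was the smallest possible with either pseudocount, 0.1 or 1. Their adjusted p therefore changed through the other pairs alone. With a pseudocount of 10 the sign turned for *Fbn2*/*Fbn1* (0.77) and *Lama5*/*Lama4* (0.054), and leaving out 1 mouse gave −0.22 to 0.14 for the latter. Of the 49 genes, those whose log2 fold change changed sign were *Agrn* 0.44, *Bgn* 0.67, *Emilin2* 0.32, *Fbln1* 0.68, *Hspg2* 0.65, *Lama4* 0.66, *Lama5* 0.64, *Lamb1* 0.58, *Lamc1* 0.57, *Matn2* 0.83, *Mfap5* 0.038, *Sparc* 0.61, *Thbs4* 0.15, *Tnxb* 0.82 with centring on fibroblast markers, *Bgn* 0.022, *Fbln1* 0.0059, *Lama4* 0.017, *Matn2* 0.17, *Tnxb* 0.15 with nuclear-sum scaling, *Fbln1* 0.031, *Fbln2* −0.13, *Nid1* −0.070, *Plod3* −0.037, *Thbs1* −0.090 with array weights, *Fbln2* −0.017, *Matn2* 0.016 with the most abundant transcript, *Fbln2* −0.032, *Matn2* 0.0062, *Plod2* 0.65 with 1 transcript per gene, the study's filter and no pseudocount, *Lama4* 0.071 with long coding transcripts only, *Matn2* 0.13, *Tnxb* 0.12 with median of ratios scaling and *Matn2* 0.15, *Tnxb* 0.057 without m35 and m125. Leaving out 1 mouse gave log2 fold changes on both sides of 0 for *Bgn* (−0.55 to 0.21), *Fbln1* (−0.44 to 0.026), *Fbln2* (−0.27 to 0.42), *Fbln5* (−0.16 to 0.48), *Lama2* (−0.011 to 0.38), *Lama5* (−0.55 to 0.042), *Matn2* (−0.40 to 0.14), *Nid1* (−0.091 to 0.32), *Ogn* (−0.14 to 0.19), *Sparc* (−0.58 to 0.077) and *Tnxb* (−0.32 to 0.19). The values given with centring follow a shift common to all genes. The 12 genes that passed kept their direction under all alternatives run, except *Plod2* as given. No paired analysis was possible because each mouse was sampled at a single age. Depth is unknown, so the precision of low values such as those of *Fbn2* at PN98 cannot be given.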
